A study of Mus musculus with 26 samples.

Results

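Mpo, Elane, Prtn3 and Ctsg encode 4 proteins of the primary (azurophil) granule of neutrophils: myeloperoxidase, neutrophil elastase, proteinase 3 and cathepsin G. They were taken as a fixed list of symbols, matched to the arrays through RefSeq accessions, and all 4 were found, each with 1 probe, among 18378 symbols on the arrays. Their expression was followed on 26 arrays of EML, an immortalised mouse blood progenitor line named for its erythroid, myeloid and lymphoid progeny. Every sample comes from this 1 line, kept in horse serum and medium conditioned with stem cell factor. The arrays fall into 3 sets that share no slide. The first set holds 3 arrays each of 3 fractions named by the submitters Sca1hi, CR Sca1lo and EryCP, which were separated on Sca1, CD34 and cKit. The second holds 3 arrays of Ediff, CD34-negative and cKit-negative progeny that EryCP cells gave under erythropoietin (Epo), beside 3 further EryCP arrays, here called EryCP repeat. In the third are 4 arrays of CD34- CD103- cells, 4 of CD34+ CD103- cells, and 3 of CD34- CD103- cells after differentiation with Epo (CD34- CD103- Epo). Sample titles of the third set read EMLe2 where those of the other sets read EML, and the titles do not say what differs. How much Epo was given and for how long is not stated in the labels. Whether the samples within a group came from separate cultures is not stated either, so p-values measure only the spread between these arrays, which may be technical.

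Primary granules are the first granules to form as granulocyte precursors reach the promyelocyte stage, and transcription of these genes is largely confined to that window in normal marrow. Myeloperoxidase is a heme enzyme that makes hypochlorous acid. Elastase, proteinase 3 and cathepsin G are serine proteases, cut to their active form by dipeptidyl peptidase I (Ctsc) and held in check by serpins of the Serpinb1 group. Secretory leukocyte protease inhibitor (Slpi) holds elastase and cathepsin G in check. The factors PU.1 (Spi1), C/EBP alpha (Cebpa), Myb and Runx1 with its partner Cbfb are known activators of these genes in myeloid precursors.

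The 250 bases before each annotated start are shown because these 4 genes are usually discussed as targets of the same factors, while their levels here were not alike. The sequences are from the RefSeq table of GRCm38.p6, on the strand of the gene, 5′ to 3′, and capitals mark GAGGAA, the purine-rich core of a PU.1 site. The windows are chr11:87793534-87793783 (plus strand) for Mpo, chr10:79886062-79886311 (plus strand) for Elane, chr10:79879417-79879666 (plus strand) for Prtn3 and chr14:56102575-56102824 (minus strand) for Ctsg.
Mpo: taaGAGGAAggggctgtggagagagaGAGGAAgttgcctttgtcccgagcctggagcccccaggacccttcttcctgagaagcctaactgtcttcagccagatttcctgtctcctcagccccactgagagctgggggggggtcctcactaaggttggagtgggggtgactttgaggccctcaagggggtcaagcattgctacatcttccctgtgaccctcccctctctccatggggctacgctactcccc
Elane: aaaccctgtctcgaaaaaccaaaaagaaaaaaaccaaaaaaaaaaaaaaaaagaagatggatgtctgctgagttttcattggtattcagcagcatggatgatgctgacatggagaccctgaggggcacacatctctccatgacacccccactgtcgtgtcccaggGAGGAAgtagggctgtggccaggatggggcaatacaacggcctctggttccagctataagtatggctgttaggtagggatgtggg
Prtn3: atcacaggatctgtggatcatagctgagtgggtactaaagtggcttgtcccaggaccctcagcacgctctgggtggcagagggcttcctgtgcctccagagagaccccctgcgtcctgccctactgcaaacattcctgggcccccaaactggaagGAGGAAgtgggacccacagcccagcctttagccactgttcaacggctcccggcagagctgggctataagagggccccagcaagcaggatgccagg
Ctsg: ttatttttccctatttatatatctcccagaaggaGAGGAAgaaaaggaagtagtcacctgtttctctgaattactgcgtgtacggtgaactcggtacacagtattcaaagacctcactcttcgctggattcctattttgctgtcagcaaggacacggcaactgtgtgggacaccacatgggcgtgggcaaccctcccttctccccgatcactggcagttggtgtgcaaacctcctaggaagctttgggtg
GAGGAA was searched on both strands and occurred in all 4 windows, with 2 matches before Mpo and 1 before each of the others; 23.3% of 32851 mouse windows of this length hold it. The Myb core AACNG was found in the 4 windows as well (1 match for Mpo, 2 for Elane, 3 each for Prtn3 and Ctsg), but 74.2% of all windows hold that short motif. TGNGGT, a pattern looser than the Runx core (TGTGGT or TGCGGT), occurred before Ctsg (2 matches) and in none of the other windows. It was in 40.1% of all windows. On the minus strand, the match 79 bases before Ctsg reads TGTGGT. The match at 140 bases reads TGAGGT, which is not that core. The letters TTNNGNAA of C/EBP sites and the GATA core GATAA were in none of the 4 windows, against 36.8% and 22.6% of all windows. No matches of different motifs overlapped. These counts describe letters and do not show binding.

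Signals are given as levels, the log2 processed signal minus the array's 75th percentile, so that 0 is the 75th percentile of that array. The 75th percentile was 648.8 to 1034 on arrays of the first set, 425.3 to 704.2 on those of the second and 757.9 to 1247 on those of the third. Between 76% and 93.8% of probes on an array were well above background. All 4 probes were well above background on all 26 arrays, and 0 spots were saturated. Differences are log2 values ± standard error from limma, with 2-sided p-values adjusted by Benjamini-Hochberg over all genes tested, and a gene was called at an adjusted p under 0.05. In bulk RNA, fewer cells of a type and less RNA per cell cannot be told apart.

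The 4 genes fell into a bright pair and a dim pair. Mpo had processed signals from 32122 to 453662 in 7 of the 8 groups and from 121 to 175 in Ediff. Ctsg had 54095 to 135673 in the same 7 groups and 231 to 260 in Ediff. Elane stayed between 10 and 94 and Prtn3 between 26 and 228 on every array, levels below the 75th percentile throughout. Probes differ in brightness for the same amount of RNA, so a dim probe does not give the rank of its gene against Mpo.

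Mean Mpo levels in the first set were 8.56 ± 0.3 (SD, n = 3) in CR Sca1lo, 8.1 ± 0.25 in Sca1hi and 5.95 ± 0.44 in EryCP. The first 2 overlapped and were not called apart without a block for slide, although CR Sca1lo was higher on each of the 3 slides, and the difference was called with slide as a block (adjusted p = 0.0234, limma). In the second set they were 5.74 ± 0.13 in EryCP repeat and -1.61 ± 0.23 in Ediff. The third set ran from 8.7 ± 0.14 in CD34+ CD103- (n = 4) through 8.14 ± 0.18 in CD34- CD103- Epo (n = 3) to 7.42 ± 0.11 in CD34- CD103- (n = 4). Mean Ctsg levels were 6.92 ± 0.24 in Sca1hi, 6.75 ± 0.31 in EryCP and 6.23 ± 0.21 in CR Sca1lo, then 6.92 ± 0.19 in EryCP repeat and -0.85 ± 0.12 in Ediff. In the third set Ctsg levels were 6.92 ± 0.07 in CD34- CD103-, 6.6 ± 0.14 in CD34- CD103- Epo and 6.37 ± 0.08 in CD34+ CD103-. The order of the groups for Ctsg in that set was thus the reverse of the order for Mpo.

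**Figure D1:**
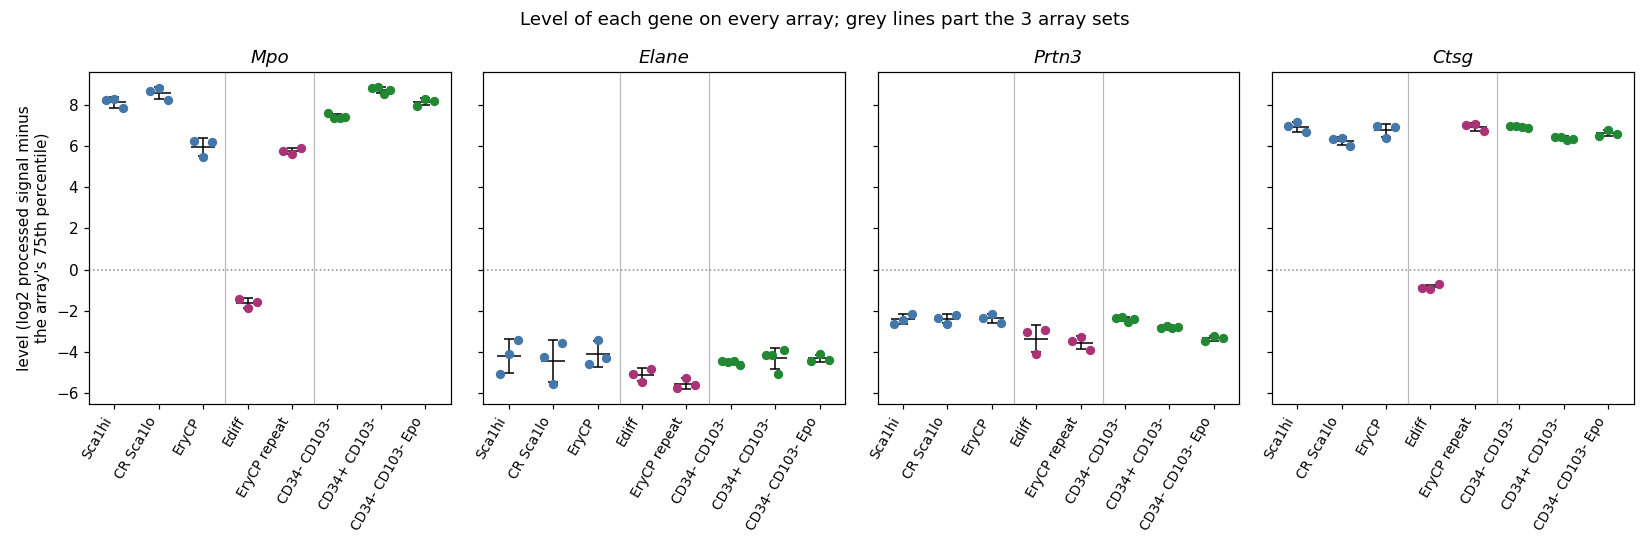
Level of each gene (log2 processed signal minus the array's 75th percentile; y axis) on each of 26 arrays in 8 groups (x axis); points are arrays, coloured by array set, and bars are the group mean ± SD. Mpo and Ctsg lie far above 0 except in Ediff, where their means are -1.61 and -0.85, while Elane and Prtn3 lie below 0 on every array.

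Sca1hi, CR Sca1lo and EryCP are sorted fractions of the line, and the question is which of the granule genes separate them. Mpo was lower in EryCP than in both other fractions, 6.09-fold against CR Sca1lo and 4.45-fold against Sca1hi, and Ctsg was not: its level in EryCP lay between those of the other fractions. Mpo levels were 8.2, 8.28 and 7.82 on the Sca1hi arrays, 8.65, 8.79 and 8.22 on the CR Sca1lo arrays and 6.24, 5.45 and 6.17 on the EryCP arrays. Every EryCP array was lower than every array of both other fractions, which overlapped each other. The difference was -2.61 ± 0.26 against CR Sca1lo (adjusted p = 0.000812, limma, n = 3 arrays per group) and -2.15 ± 0.26 against Sca1hi (adjusted p = 0.00187). Within the 3 slides, each of which held 1 array of each fraction, it ran from -2.78 to -2.42 and from -2.38 to -2.04. Between CR Sca1lo and Sca1hi Mpo differed by 0.45 ± 0.26 (adjusted p = 0.631), by 0.37 to 0.59 within slides, and it passed the test once slide entered the fit as a block (adjusted p = 0.0234).

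Ctsg levels were 6.97, 7.13 and 6.66 on the Sca1hi arrays, 6.32, 6.38 and 5.99 on the CR Sca1lo arrays and 6.96, 6.39 and 6.9 on the EryCP arrays. CR Sca1lo was lowest, with no overlap with either other fraction, and Sca1hi and EryCP overlapped. The difference of CR Sca1lo from Sca1hi was -0.69 ± 0.21 (adjusted p = 0.167) and that of EryCP from CR Sca1lo was 0.51 ± 0.21 (adjusted p = 0.32), so neither passed the test. Both were called with slide as a block (adjusted p = 0.00252 and 0.00573), with quantile normalization (0.00404 and 0.00956), in the fit of all 26 arrays (0.00323 and 0.0238) and in the deposited value table (0.00321 and 0.00553). EryCP differed from Sca1hi by -0.17 ± 0.21 (95% interval -0.67 to 0.32).

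Elane levels were -5.06, -4.1 and -3.4 on the Sca1hi arrays, -4.21, -5.53 and -3.54 on the CR Sca1lo arrays and -4.58, -3.4 and -4.27 on the EryCP arrays. The fractions overlapped, and the differences of -0.24, 0.34 and 0.11 each had a standard error of 0.6. Prtn3 levels ran from -2.63 to -2.14 over the 9 arrays, with differences of 0.03, 0.02 and 0.05 and a standard error of 0.2. The largest difference these intervals allow for Prtn3 is 0.51 either way.

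In CR Sca1lo against Sca1hi the test called 0 of the 4, where 3.59% of all genes were called (1.21% higher, 2.38% lower). In EryCP 1 of 4, Mpo, was called against CR Sca1lo, where 4.95% of all genes were called (2.7% higher, 2.26% lower). The same gene was called against Sca1hi, where 6.39% were (3.1% higher, 3.29% lower). Groups did not overlap for 1 of 4, 2 of 4 and 1 of 4 genes, against 18.6%, 18.1% and 18.9% of all genes. With normexp background correction, which left 73 and 98 genes called in place of 1311 and 1691, Mpo differed by -2.35 (adjusted p = 0.0876) and -1.97 (adjusted p = 0.16) and was not called.

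Other cargo and machinery of these granules moved in both directions between the same fractions. Of 19 tested genes of granule assembly and cargo 1 was called higher and 2 lower in CR Sca1lo than in Sca1hi, and 2 higher and 6 lower in EryCP than in CR Sca1lo, with list medians of -0.12 and -0.35 against 0.03 and -0.07 for all genes. Ms4a3, a membrane protein gene of granulocyte-monocyte precursors, was higher in CR Sca1lo (1.88 ± 0.22, adjusted p = 0.00292, limma) and then lower in EryCP (-1.41 ± 0.22, adjusted p = 0.00789). Prss57, which encodes the fourth neutrophil serine protease of the granule, was lower in EryCP than in CR Sca1lo (-1.26 ± 0.22, adjusted p = 0.0126). Lysozyme genes followed, Lyz1 by -1.1 ± 0.18 and Lyz2 by -1.11 ± 0.2, but these paralogs are similar and their probes may share signal. The processing enzyme gene Ctsc was lower in CR Sca1lo than in Sca1hi (-0.64 ± 0.14, adjusted p = 0.0461). Against Sca1hi, EryCP had 1 of the 19 higher and 5 lower, among them Npc2, a cholesterol carrier of lysosomes (-1.89 ± 0.27), Lyz2 (-1.88 ± 0.2) and Lyz1 (-1.81 ± 0.18).

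Of 9 tested regulators 1 was higher and 3 lower in CR Sca1lo than in Sca1hi, 0 higher and 2 lower in EryCP than in CR Sca1lo, and 0 higher and 4 lower in EryCP than in Sca1hi. Cebpa was higher in CR Sca1lo than in Sca1hi (0.88 ± 0.14, adjusted p = 0.0126) and lower in EryCP than in CR Sca1lo (-1.14 ± 0.14, adjusted p = 0.00242), with 1 of its 2 probes called each time. Gfi1, a repressor needed for neutrophil maturation, was lower in EryCP than in Sca1hi (-2.66 ± 0.16, adjusted p = 0.00011). Spi1, which encodes PU.1, was lower in the same comparison (-0.99 ± 0.13, adjusted p = 0.00256). Of 10 tested inhibitors 2 were higher and 0 lower in EryCP than in CR Sca1lo, with a list median of 0.05 against -0.07 for all genes. These were Serpinb1a (1.9 ± 0.19, adjusted p = 0.000851) and Serpinb1c (2.5 ± 0.19, adjusted p = 0.000199), paralogs whose probes may share signal. Between CR Sca1lo and Sca1hi 3 of the 10 were lower and 0 higher, and in EryCP against Sca1hi 1 was higher and 1 lower. With normexp 1 of these partner, regulator and inhibitor genes was called, Serpinb1c in EryCP against CR Sca1lo (2.98, adjusted p = 0.0495). Median scaling ended every call in these 3 lists in CR Sca1lo against Sca1hi. In EryCP against CR Sca1lo it ended those of Ms4a3, Prss57, Lyz1, Lyz2 and Cebpa (adjusted p = 0.131 to 0.478) and of Gfi1 and Npc2. In EryCP against Sca1hi it ended those of Npc2 (0.0902), Spi1 (0.155), Cebpb, Cebpd, Gusb, Hexa, Serpinb1c and Serpinb6b. Spike-in scaling ended those of Ctsc (0.824), Cebpa (0.783) and Serpinb1a (0.0889) in CR Sca1lo against Sca1hi. The calls of Cebpd, Serpinb1c and Serpinb6b ended there too, so all 3 inhibitors called lower were lost. In EryCP against CR Sca1lo spike-in scaling ended those of Cebpa (0.0777), Prss57 (0.0838), Lyz1 (0.176), Lyz2 (0.183) and Gfi1. Against Sca1hi it ended those of Spi1 (0.0725), Gusb, Hexa, Serpinb1c and Serpinb6b. In CR Sca1lo against Sca1hi Cebpa (0.0739) and Serpinb1c were not called with the mean of their probes, nor Ctsc with no filter on dim probes (0.0862). These differences kept their signs. Calls were also lost when 1 array was left out for Ctsc, Cebpa, Cebpd, Serpinb1a and Serpinb6b in CR Sca1lo against Sca1hi. The same held for Prss57, Lyz1, Lyz2 and Gfi1 in EryCP against CR Sca1lo and for Gusb, Hexa, Serpinb1c and Serpinb6b against Sca1hi. Ctsc lost its call without any 1 of the 6 arrays (adjusted p = 0.105 to 0.226) and Cebpa without Sca1hi array 2 (0.0891) or CR Sca1lo array 1 (0.0687) or 2 (0.0771). Serpinb1a lost it without Sca1hi array 1 (0.0594) or 2 (0.076) or CR Sca1lo array 1 (0.0563), and in EryCP Prss57 without CR Sca1lo array 1 (0.067) or 2 (0.0699). Lyz1 lost it without CR Sca1lo array 1 (0.0588) or 2 (0.0641), as Lyz2 did (0.0734 and 0.0852), and Lyz2 without EryCP array 1 (0.0527) too.

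Markers of other cells moved in the same fractions. In EryCP 5 of 7 mast cell and basophil markers and 7 of 9 erythroid markers were higher than in CR Sca1lo, with 0 lower in both lists. The log2 summed level of the mast cell and basophil markers was 7.37 to 7.87 on the CR Sca1lo arrays and 8.04 to 8.49 on the EryCP arrays. That of the erythroid markers was 6.03 to 6.58 and 5.76 to 6.34. Such sums follow the brightest marker. Cpa3 (mean levels 7.58 and 7.68) made up most of the first and Hbb-bt (6.27 and 5.66) most of the second, and neither was called. No mast cell or basophil marker tested was below background on these arrays. The part of these cells in the Mpo and Ctsg results was not tested.

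**Figure D2:**
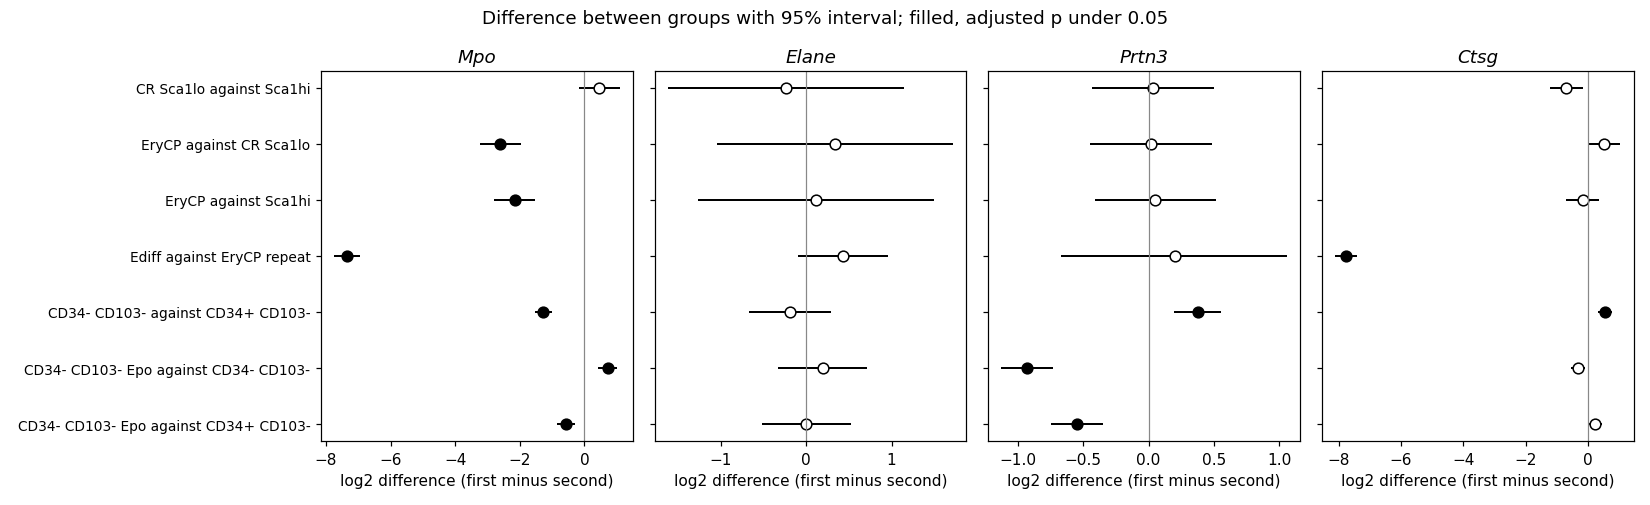
Log2 difference of each gene (x axis, first group minus second, one scale per gene) in the 7 comparisons (y axis), with the 95% interval from limma; filled circles were called at an adjusted p under 0.05. Mpo and Ctsg lie at -7.35 and -7.76 in Ediff, Mpo and Prtn3 are the only genes called in the comparisons with CD34- CD103- Epo cells, and Elane was called in none.

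Ediff cells were compared with EryCP repeat to see how the granule genes differ in the progeny that EryCP cells gave under Epo. Ediff cells were collected as CD34-negative and cKit-negative, and the set holds no EryCP progeny grown without Epo. Epo, time in culture and the gate therefore cannot be told apart here. Both bright genes were almost lost: Mpo was 163-fold lower and Ctsg 217-fold lower. Mpo levels were 5.75, 5.61 and 5.87 on the EryCP repeat arrays and -1.4, -1.85 and -1.58 on the Ediff arrays. The processed signals fell from between 32122 and 35298 to between 121 and 175, still well above background. The difference was -7.35 ± 0.15 (adjusted p = 1.71e-06, limma, n = 3 arrays per group), and it was -7.66 and -7.1 within the 2 slides.

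Ctsg levels were 7, 7.05 and 6.7 on the EryCP repeat arrays and -0.91, -0.92 and -0.71 on the Ediff arrays. No array of one group came near the other, and the difference was -7.76 ± 0.13 (adjusted p = 1.32e-06), or -7.86 and -7.77 within slides. With normexp the differences shrank to -6.01 for Mpo (adjusted p = 0.00554) and -6.95 for Ctsg (adjusted p = 0.00404), both still called.

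The dim pair did not follow. Elane levels were -5.74, -5.23 and -5.59 on the EryCP repeat arrays and -5.05, -5.43 and -4.8 on the Ediff arrays, which overlapped. Its difference of 0.43 ± 0.21 (adjusted p = 0.125) was called when Ediff array 2 was left out (0.59, adjusted p = 0.041), and it was -0.01 in the deposited value table. Prtn3 levels were -3.45, -3.28 and -3.88 on the EryCP repeat arrays and -3.01, -4.09 and -2.92 on the Ediff arrays, also overlapping, with a difference of 0.2 ± 0.35 (adjusted p = 0.634, 95% interval -0.66 to 1.05). Both probes were already dim in EryCP repeat. Of the 4 genes 2 were called in this comparison, in which 56.6% of all genes were called (39.8% higher, 16.8% lower), and 2 of 4 did not overlap, against 63.3% of all genes. The median of the 4 differences was -3.58, against 0.45 for all genes tested.

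Most other genes of the granule list were lower as well. Of 19 tested assembly and cargo genes 12 were lower and 3 higher in Ediff, beside 16.8% and 39.8% of all genes. The list median was -0.58. Ms4a3 was 64.1-fold lower (-6 ± 0.12, adjusted p = 1.71e-06) and Prss57 was 41-fold lower (-5.36 ± 0.12, adjusted p = 2.01e-06). Rab27a, a small GTPase of granule secretion, was 15.5-fold lower (-3.95 ± 0.11) and Lyz2 17.1-fold lower (-4.1 ± 0.31). The second Lyz2 probe differed by -0.15 and was not called, so the fall of Lyz2 rests on 1 probe. Lyz1 was not well above background on any Ediff array and was at least 8.68-fold lower, a bound taken from the higher, per Ediff array, of its own signal and the faintest signal that passed as above background. The tetraspanin gene Cd63 was 4.53-fold lower (-2.18 ± 0.1), and Srgn, the proteoglycan core on which these proteins pack, chosen here after its value was seen, was 3.95-fold lower (-1.98 ± 0.13). With normexp 1 of these genes, Ms4a3 (-3.65, adjusted p = 0.039), was called lower and 0 higher, in a fit that called 235 of all genes in place of 13980, and the differences of Prss57 and Rab27a were then -1.72 and -1.73.

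Inhibitors of these proteases were called in both directions. The 3 Serpinb1 genes, relatives of the human inhibitor that blocks elastase, cathepsin G and proteinase 3, were all lower: Serpinb1a was 243-fold lower (-7.93 ± 0.14) and Serpinb1c 355-fold lower (-8.47 ± 0.3). Serpinb1b differed by -8.1 ± 0.16 (adjusted p = 1.71e-06) but was well above background on 1 of 3 Ediff arrays, so no fold is given for it. These paralogs are alike in sequence, and their probes may share signal. Slpi was 2.3-fold higher (1.2 ± 0.27, adjusted p = 0.0113) and A2m, the broad protease trap, 2.07-fold higher (1.05 ± 0.24, adjusted p = 0.0137). Of 10 tested inhibitors 4 were higher and 4 lower, where 39.8% of all genes were higher and 16.8% lower. The count of higher inhibitors was thus near the share of all genes. The A2m call was lost without Ediff array 3 (adjusted p = 0.0514) or EryCP repeat array 1 (0.0503), and with normexp Serpinb1a (-7.24) and Serpinb1c (-4.85) were called and the other named inhibitors were not.

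Regulators changed in both directions in Ediff, with 3 of 9 higher and 4 lower, beside 39.8% and 16.8% of all genes. Cbfb was lower (-4.39 ± 0.1, adjusted p = 2.52e-06), and its second probe differed by -1.59. Myb (-2.21 ± 0.16, adjusted p = 0.000118) and Cebpa (-2.11 ± 0.22, adjusted p = 0.000513) were lower too, the second Cebpa probe differing by 0.26 and not called. Gfi1 differed by -2.38 ± 0.69 (adjusted p = 0.0278) and was well above background on 1 of 3 Ediff arrays. It was not called without any 1 of 5 arrays (adjusted p = 0.0522 to 0.0876; Ediff array 3 was the exception) and differed by 0.13 with normexp, under which Cbfb was the 1 regulator called (-4.21). Cebpb, a C/EBP gene of emergency granulopoiesis, was higher (3.13 ± 0.12, adjusted p = 1.11e-05). Irf8 was higher as well (0.75 ± 0.16, adjusted p = 0.00894). The 2 Runx1 probes were called in opposite directions (1.16 and -2.23), so no direction is given for this gene. It is counted among the 3 higher through the probe at 1.16. Spi1 was not called.

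**Figure D3:**
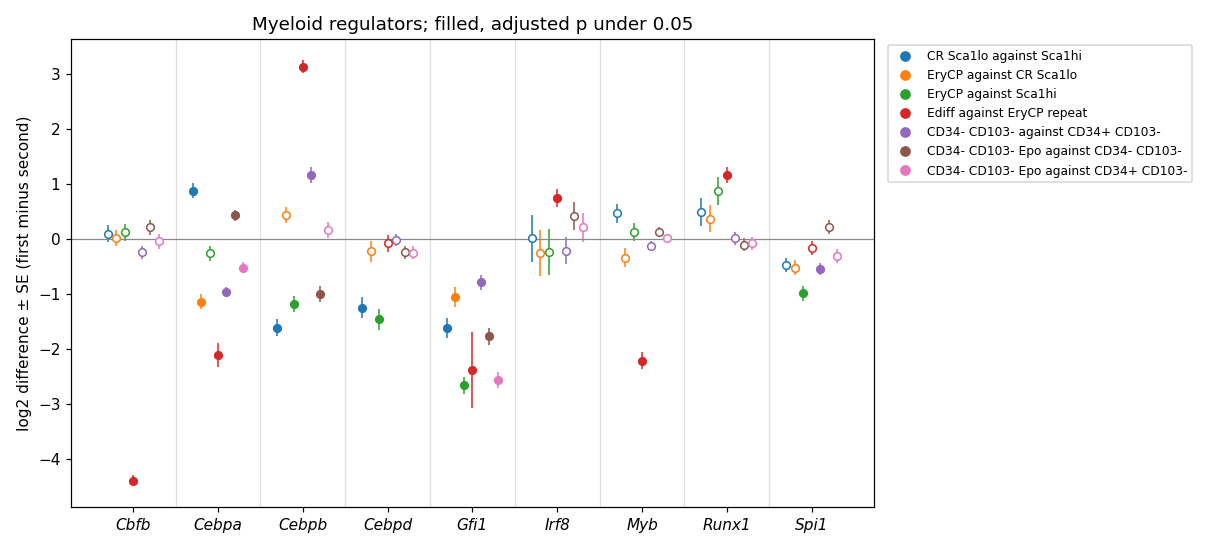
Log2 difference ± SE (y axis, first group minus second) of 9 myeloid regulators (x axis) in the 7 comparisons (colours), for the brightest probe of each gene; filled circles were called at an adjusted p under 0.05. Cbfb at -4.39 and Cebpb at 3.13 are the extremes in Ediff, and Cebpa is higher in CR Sca1lo than in Sca1hi and lower in the other comparisons called, except after Epo in CD34- CD103- cells (0.43).

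Markers beside these results were as follows, where 39.8% of all genes were higher in Ediff and 16.8% lower. All 9 erythroid markers were higher in Ediff, and their log2 summed level went from between 7.23 and 7.86 to between 11.02 and 11.15. Of 7 mast cell and basophil markers 6 were lower and 0 higher, from between 7.96 and 8.22 to between 0.87 and 1.1, and of 5 granulocyte-monocyte progenitor markers 4 were lower and 1 higher, from between 5.37 and 5.53 to between 2.07 and 2.1. Monocyte and macrophage markers had 3 of 7 lower and 1 higher. The part of such cells in the fall of Mpo and Ctsg was not tested.

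CD34- CD103- cells were compared with CD34+ CD103- cells to ask how the granule genes differ across the CD34 boundary. Mpo was 2.43-fold lower in CD34- CD103- cells, while Ctsg was 1.46-fold and Prtn3 1.3-fold higher. Mpo levels were 7.59, 7.35, 7.36 and 7.39 on the CD34- CD103- arrays and 8.79, 8.83, 8.51 and 8.68 on the CD34+ CD103- arrays. The groups did not overlap, and the difference was -1.28 ± 0.11 (adjusted p = 1.77e-05, limma, n = 4 arrays per group), with -1.39 to -1.14 within the 3 slides.

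Ctsg levels were 6.97, 6.98, 6.9 and 6.84 on the CD34- CD103- arrays and 6.43, 6.45, 6.27 and 6.34 on the CD34+ CD103- arrays. Every CD34- CD103- array was higher, by 0.55 ± 0.08 (adjusted p = 0.00136) and by 0.51 to 0.63 within slides. Prtn3 levels were -2.35, -2.31, -2.55 and -2.38 against -2.81, -2.74, -2.81 and -2.76. These did not overlap either, and the difference was 0.38 ± 0.08 (adjusted p = 0.00998). Elane levels were -4.44, -4.47, -4.44 and -4.63 against -4.15, -4.13, -5.05 and -3.88, with a difference of -0.19 ± 0.21 (adjusted p = 0.666). CD34+ CD103- array 3 was the lowest there, and without it the difference was -0.44 (adjusted p = 0.0295). Of the 4 genes 3 were called, against 12.5% of all genes (5.66% higher, 6.82% lower), and 3 of 4 did not overlap, against 17.1%.

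The smaller increases depended on the scaling. With spike-in scaling, which moved the median difference of all genes from -0.06 to -0.34, Ctsg differed by 0.27 (adjusted p = 0.0861), Prtn3 by 0.1 (adjusted p = 0.537) and Mpo by -1.56 (adjusted p = 2.03e-06). Prtn3 was also not called with normexp (0.17, adjusted p = 0.325) or in the fit of all 26 arrays (adjusted p = 0.325).

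Of 19 tested assembly and cargo genes 5 were higher and 7 lower in CD34- CD103- cells, beside 5.66% and 6.82% of all genes. Prss57 was lower (-1.03 ± 0.1, adjusted p = 5.18e-05), as were Npc2 (-1.07 ± 0.09) and Ms4a3 (-0.71 ± 0.08, adjusted p = 0.000153). Lyz2 (1.49 ± 0.09, adjusted p = 1.34e-06) and Lyz1 (1.43 ± 0.08) were higher. Of 9 regulators 1 was higher and 3 lower: Cebpb was higher (1.16 ± 0.14, adjusted p = 0.000244), with its second probe at 0.05 and not called, and Cebpa (-0.96 ± 0.09), Gfi1 (-0.79 ± 0.14) and Spi1 (-0.54 ± 0.11) were lower, Gfi1 not being called in the fit of all 26 arrays (adjusted p = 0.215). Among 10 inhibitors Serpinb1a (1.4 ± 0.06), Serpinb1b (2.08 ± 0.24) and Serpinb1c (1.84 ± 0.07) were higher and Slpi was lower (-0.85 ± 0.1, adjusted p = 0.000278). The second Serpinb1b probe differed by -0.39 and was not called, and neither was the second Slpi probe (-0.24) or the mean of both Slpi probes (-0.54, adjusted p = 0.0511). Beside these, 5 of 7 mast cell and basophil markers and 7 of 9 erythroid markers were higher and 0 lower in CD34- CD103- cells. The log2 summed level of the mast cell and basophil markers was 8.33 to 8.41, against 7.94 to 8.16 in CD34+ CD103- cells. Cpa3 (mean levels 8.15 and 8.05, not called) made up most of that sum. The part of these markers' cells in the Ctsg result was not tested.

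CD34- CD103- Epo cells were compared with CD34- CD103- cells to follow the granule genes under Epo in that fraction. Here Mpo was 1.64-fold higher and Prtn3 1.9-fold lower, and Ctsg and Elane were not called. Mpo levels were 7.94, 8.28 and 8.19 on the CD34- CD103- Epo arrays, all above the 7.35 to 7.59 of the CD34- CD103- arrays. The difference was 0.72 ± 0.11 (adjusted p = 0.00698, limma, n = 3 and 4 arrays) and 0.48 and 0.92 within the 2 slides that held both groups. With spike-in scaling it was 0.49 (adjusted p = 0.0764) and not called.

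Prtn3 levels were -3.44, -3.22 and -3.32 on the CD34- CD103- Epo arrays, all below the lowest CD34- CD103- array at -2.55. The difference was -0.93 ± 0.09 (adjusted p = 0.000154), or -1.03 and -0.66 within slides. With normexp it was -0.5 (adjusted p = 0.0585) and not called, and the probe's processed signals were 82 to 88 after Epo and 167 to 216 before. Ctsg levels were 6.46, 6.75 and 6.59 after Epo, below every array without Epo, and differed by -0.32 ± 0.09 (adjusted p = 0.0971). It was called with quantile normalization (-0.51, adjusted p = 0.00398), spike-in scaling (-0.55, 0.0381), median scaling (-0.36, 0.0472), a trended robust fit (-0.32, 0.0352) and the deposited value table (-0.48, 0.00312). Elane levels were -4.45, -4.1 and -4.36, with a difference of 0.19 ± 0.23 (95% interval -0.32 to 0.7). Of the 4 genes 2 were called, against 2.6% of all genes (0.676% higher, 1.92% lower), and 3 of 4 did not overlap, against 19.1%.

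Against CD34+ CD103- cells, the CD34- CD103- Epo cells had Mpo lower by -0.56 ± 0.11 (adjusted p = 0.0164, limma) and Prtn3 by -0.55 ± 0.09 (adjusted p = 0.00424), while Ctsg differed by 0.23 ± 0.09 (adjusted p = 0.221) and Elane by 0 ± 0.23. Arrays did not overlap for Mpo, Prtn3 and Ctsg, 3 of 4 genes against 18.6% of all genes, and 2 of 4 were called, against 5.52% (2.57% higher, 2.95% lower). The Mpo call was lost in the fit of all 26 arrays (adjusted p = 0.0936), without CD34+ CD103- array 1 (0.0506) and without CD34- CD103- Epo array 1 (0.0866) or 3 (0.0514). The Prtn3 call was lost with normexp (-0.33, adjusted p = 0.186) and in the fit of all 26 arrays (adjusted p = 0.22). Ctsg was lower with spike-in scaling (-0.28), which moved the median of all genes to -0.49, and was not called there.

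After Epo in this fraction 1 of 19 partner genes was higher and 4 were lower, beside 0.676% and 1.92% of all genes. Prss57 was higher (0.61 ± 0.11, adjusted p = 0.0118), but not with spike-in scaling (0.39, 0.236) or without CD34- CD103- Epo array 2 (0.0714) or 3 (0.0657). The lysozyme genes were lower, Lyz2 by -2.47 ± 0.09 (adjusted p = 3.11e-07) and Lyz1 by -2.45 ± 0.09. Lyst, a regulator of lysosome size, was at least 3.02-fold lower, being well above background on 0 of 3 arrays after Epo, and was not called with normexp (-0.21, adjusted p = 0.622). Serpinb1a (-0.52 ± 0.07), Serpinb1b (-1.26 ± 0.26) and Serpinb1c (-0.8 ± 0.08) were lower, 3 of 10 inhibitors with 0 higher; Serpinb1b lost its call without any 1 of 5 arrays (adjusted p = 0.0918 to 0.153; without CD34- CD103- array 1 or 3 it was called). Serpinb1b was also not called in the fit of all 26 arrays (0.287), with median scaling (0.062), with no filter on dim probes (0.0504) or with the mean of its probes (-0.43, 0.298), the second of which differed by 0.4. Serpinb1c was not called with the mean of its probes (-0.99, 0.181). Of 9 regulators Gfi1 (-1.77 ± 0.15, adjusted p = 6.65e-05) and Cebpb (-1 ± 0.15, adjusted p = 0.00435) were lower and Cebpa was higher (0.43 ± 0.1, adjusted p = 0.0496), a call lost in 7 of the other settings and without any 1 of 6 arrays (adjusted p = 0.0532 to 0.222; without CD34- CD103- array 1 it was called). Of 9 erythroid markers 0 were higher and 1 was lower, and their log2 summed level was 5.62 to 6.2 without Epo and 6.15 to 6.56 after it. Hbb-bt (mean levels 5.71 and 6.32, not called) made up most of that sum. Of 7 mast cell and basophil markers 4 were lower and 0 higher, from between 8.33 and 8.41 to between 8 and 8.14. Their part in the result for the granule genes was not tested.

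Against CD34+ CD103- cells 2 of 19 partner genes were higher and 5 lower after Epo, 0 of 9 regulators higher and 2 lower (Gfi1 by -2.56 ± 0.15 and Cebpa by -0.52 ± 0.1, the latter not called without CD34- CD103- Epo array 1, adjusted p = 0.069, or with the mean of its probes, adjusted p = 0.125), and 2 of 10 inhibitors higher and 1 lower.

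The Epo responses of both fractions were compared directly, as the change from EryCP repeat to Ediff minus the change from CD34- CD103- to CD34- CD103- Epo, over 13 arrays. For Mpo the changes were -7.35 and 0.72 and their difference was -8.07 ± 0.18 (adjusted p = 1e-10, limma). For Ctsg they were -7.76 and -0.32, with a difference of -7.44 ± 0.16 (adjusted p = 7.58e-11). For Prtn3 they were 0.2 and -0.93, with a difference of 1.12 ± 0.36 (adjusted p = 0.0304), which was not called with normexp (adjusted p = 0.964) or when any 1 of 7 arrays was left out (adjusted p = 0.0505 to 0.0761). For Elane the difference was 0.24 ± 0.24 (adjusted p = 0.446). Of the 4 genes 3 were called, against 37.8% of all genes (23.6% higher, 14.3% lower). The fractions lie in different array sets, whose titles read EML and EMLe2. Ediff cells were collected as CD34-negative and cKit-negative, while no gate after Epo is stated for the others. The fraction, the array set, the EMLe2 label and the gate therefore cannot be told apart here.

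The same contrast was called for 18 of 20 partner genes, 13 lower and 5 higher, beside 14.3% and 23.6% of all genes. Ms4a3 (-6.23 ± 0.14), Prss57 (-5.97 ± 0.17) and Rab27a (-3.7 ± 0.15) were the largest among those lower. With normexp 4 partner genes were lower and 0 higher: Prss57 (-2.25, adjusted p = 0.106) and Rab27a (-1.53, adjusted p = 0.199) were then not called and Ms4a3 was (-3.83). Spike-in scaling left 8 lower and 3 higher. Of 10 inhibitors 4 were lower and 2 higher, led by Serpinb1c (-7.67 ± 0.31) and Serpinb1a (-7.41 ± 0.15). Of 9 regulators 4 were lower and 1 higher, with Cbfb at -4.6 ± 0.15 and Cebpb at 4.13 ± 0.22; Runx1 is among the 4, but its probes disagreed here too (-2.13 and 1.16). The Serpinb1c, Serpinb1a, Cbfb and Cebpb calls were kept with normexp, and those of Serpinb1b, Slpi, Cebpa and Runx1 were not.

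**Figure D4:**
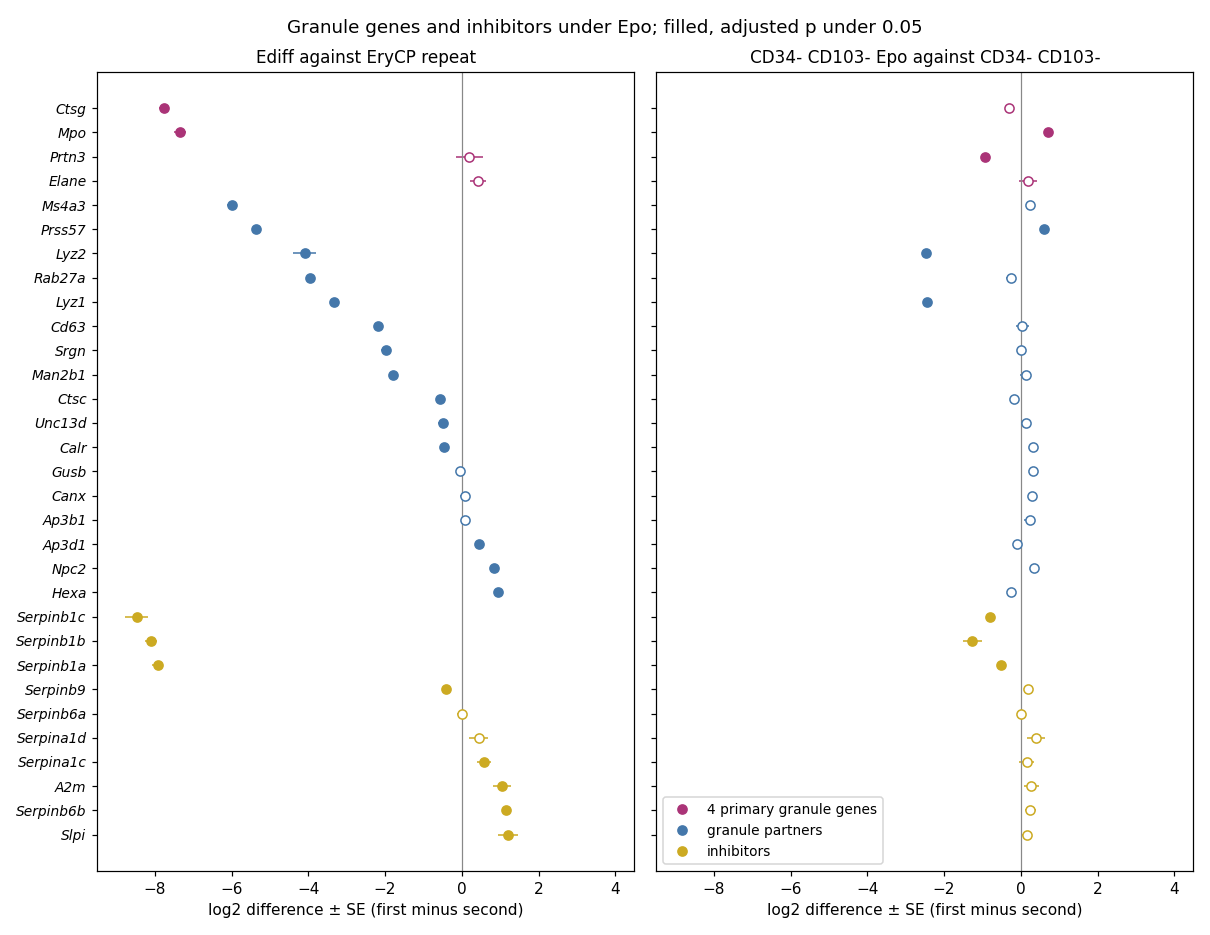
Log2 difference ± SE (x axis) of the 4 primary granule genes, their partners and inhibitors (y axis) in Ediff against EryCP repeat (left) and CD34- CD103- Epo against CD34- CD103- (right), on one scale; filled circles were called at an adjusted p under 0.05. Mpo, Ctsg and the 3 Serpinb1 genes lie below -7 on the left, and on the right Mpo lies at 0.72 and the lowest genes are Lyz2 at -2.47 and Lyz1 at -2.45.

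The genes whose pattern was most like each granule gene were sought among 15690 genes tested in all sets, by Pearson's r over 26 arrays after centring on the mean of each set. These values are a description: arrays of a group are not independent, arrays of a set share slides, and the Ediff arrays carry most of the spread. The most similar to Mpo were Cd72 and Tspan3 (r = 0.993), Arhgef6 (0.992), and Thsd1 and Cd52 (0.99). Among the most similar to Ctsg were Rras2 (0.995) and Vim, Cd84 and Fxyd5 (0.994). Mpo and Ctsg had r = 0.882 with each other but a Spearman rho of 0.348. For the dim genes the highest values were lower: Slc4a10 for Elane (0.907), followed by Casp4, Tnfrsf23, Tigd3 and Olfr904, and Krt4 for Prtn3 (0.833), followed by Prss41, Wscd2, Fblim1 and Ifitm6. Both dim genes varied with the slide in the first set. Prtn3 was -2.18 to -2.14 on slide 2, -2.44 to -2.33 on slide 3 and -2.63 to -2.6 on slide 1. Elane was highest on slide 2 (-3.54 to -3.4). Centring was by set and not by slide, and the part of slides in these values was not tested. Elane and Prtn3, which are neighbours, had r = 0.331 over the arrays and -0.136 over the 8 group means, so the sign depended on the unit taken. For Casp4 with Elane r was 0.892 over the arrays and 0.507 over the group means.

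Ctsg lies in the GRCm38.p6 gene order between Mcpt8 and Gzme, in the mast cell chymase and granzyme locus, and the 3 genes nearest to it on each side were examined. Of these 6 genes 5 were tested. Compared with CR Sca1lo, 3 were higher in EryCP and 0 lower, while in Ediff 4 were lower and 0 higher than in EryCP repeat. Across the CD34 boundary 3 were higher in CD34- CD103- cells, and after Epo in these cells 3 were lower. In the same order 2.7% of all genes were higher, 16.8% lower, 5.66% higher and 1.92% lower. Mcpt9, counted in each of these comparisons, changed sign with normexp in EryCP (-0.38) and Ediff (0.38). Mcpt8, the basophil protease gene next to Ctsg, was higher in EryCP than in CR Sca1lo by 4.2 ± 0.18 (adjusted p = 2.23e-05, limma), lower in Ediff by -10.22 ± 0.29 (adjusted p = 3.82e-06; well above background on 2 of 3 Ediff arrays), higher in CD34- CD103- cells by 2.61 ± 0.13 and lower after Epo by -1.03 ± 0.14. Mcpt4, a mast cell chymase gene, differed by 7.97 ± 0.42, -6.54 ± 0.18, 6.99 ± 0.22 and -3.67 ± 0.24 in the same comparisons. Ctsg itself had 0.51, -7.76, 0.55 and -0.32, of which those in Ediff and across the CD34 boundary were called. Gzme, next to Ctsg on the other side, differed by -0.27 ± 0.68, 1.14 ± 0.41, -0.18 ± 0.1 and 0.12 ± 0.11, each opposite in sign to Ctsg and none called. Mcpt8 and Ctsg were opposite in sign in the other comparisons of the first set, CR Sca1lo against Sca1hi (1.22 ± 0.18 and -0.69) and EryCP against Sca1hi (5.42 ± 0.18 and -0.17), with Mcpt8 called in both. The Mcpt8 call in CR Sca1lo was lost with normexp, median and spike-in scaling and without Sca1hi array 2 (adjusted p = 0.0592) or CR Sca1lo array 1 (0.0555) or 2 (0.0597), and in Ediff normexp ended those of Gzmd and Mcpt9.

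Around Mpo, whose downstream neighbours Lpo and Epx are the related lactoperoxidase and eosinophil peroxidase genes, 6 of 6 nearest genes were tested. In Ediff 3 were higher and 2 lower, where 39.8% of all genes were higher and 16.8% lower. With normexp none of these neighbours was called. Lpo was higher (1.17 ± 0.21, adjusted p = 0.00458, limma) where Mpo fell, and it differed by 0.64 and was not called with normexp. Epx was lower in CD34- CD103- than in CD34+ CD103- cells (-1.92 ± 0.35, adjusted p = 0.00485), as Mpo was, and differed by -1.68 ± 0.35 (adjusted p = 0.0302) in EryCP against CR Sca1lo, a call lost without any 1 of 5 arrays (adjusted p = 0.0537 to 0.136; without EryCP array 2 it was called). After Epo in CD34- CD103- cells 0 of the 6 were called, against 2.6% of all genes. Elane and Prtn3 lie next to each other beside Cfd, and of the 6 genes around Elane 2 were higher and 0 lower in Ediff, a comparison in which 39.8% of all genes were higher. They were Cfd (1.52 ± 0.33, adjusted p = 0.0109) and Med16 (0.36 ± 0.09, adjusted p = 0.015). Cfd was not called with normexp (0.67), quantile normalization (1.11) or in the deposited value table (0.25), and Med16 was not called with normexp (0.14), spike-in scaling (0.26) or median scaling (0.07), or without Ediff array 1 (adjusted p = 0.148) or 3 (0.344) or EryCP repeat array 1 (0.0659) or 2 (0.405).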

How the data were processed

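RNA of 26 samples in 8 groups was measured on 1-colour arrays. Per the file headers, the deposited files give linear intensity per spot, extracted by Agilent Feature Extraction (10.1.1.1 in the first and second sets, 10.7.1.1 in the third). The authors' own processed log2 values, deposited without a statement of their normalization, served as an alternative. Of 41174 probes 27071 were named by RefSeq accession through a gene table of GRCm38.p6, and 14103 were unnamed here. Spots marked uneven or outlying were left out, 48 to 446 per array, and control spots too. Log2 processed signals were centred on each array's 75th percentile, and probes were tested if, in some group of the set, a share of 0.5 or more of their spots was well above background on each array, and if each group had 2 or more measured arrays. The brightest probe stood for each gene. Each set was fitted with limma 3.58.1 (lmFit, eBayes) in R 4.3.3 with data.table (version 1.17.8), and the steps were tested on simulated data. Figures used matplotlib 3.10.9, pandas 2.3.3 and Python 3.11.15. The number of arrays limits the precision.

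Genes named are the 4 genes, at most the 6 called genes of largest difference in the lists of partners, regulators and inhibitors, the 5 most alike genes per member and its 3 nearest genes on each side; others named were chosen after their values were seen. Single results of 2 genes under this rule are not reported here, though list counts include them. The genes and lists were chosen with earlier results of these data known. The alternatives were normexp background correction (offset 50, on median signals), quantile, spike-in and median scaling, no or a strict filter on dim probes, slide as a block, a fit of all 26 arrays, a trended robust fit, the deposited table, the mean of all probes, and leaving out each array.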

Additional observations from a re-analysis of the deposited data

Results flagged for a closer look

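Mpo in CD34- CD103- cells had 1 array far from the others: array 1 had a level of 7.59 and the other arrays 7.35 to 7.39, a gap of 0.865 of the whole range. Chance flags about 1 in 20 groups, and 8 were examined (4 genes in the 2 groups of 4 arrays). The difference between the Epo responses was called for Mpo (-8.07), Ctsg (-7.44) and Prtn3 (1.12), each by the test of that difference itself.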

How the results depend on the processing

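The alternatives above were compared with the values reported. Mpo and Ctsg kept their direction and call in Ediff and in the difference between the Epo responses under every alternative, as Mpo did in CD34- CD103- against CD34+ CD103- cells. With normexp correction the genes called numbered 2, 73 and 98 in CR Sca1lo against Sca1hi, EryCP against CR Sca1lo and EryCP against Sca1hi (950, 1311 and 1691 as reported), 235 in Ediff (13980), 366 and 878 in CD34- CD103- Epo against CD34- CD103- and CD34+ CD103- cells (710 and 1510) and 786 for the difference between the Epo responses (10323), and of the 4 genes 0, 0, 1 and 1 were called in both EryCP and both CD34- CD103- Epo comparisons (1, 1, 2 and 2). It moved the median of all genes from -0.07 to -0.55 and from -0.04 to -0.5 in the EryCP comparisons and the share of calls that were higher from 54.5% to 79.5% in EryCP against CR Sca1lo and from 62.3% to 29.4% in the difference. Signs that turned with it were those of Prtn3 in CR Sca1lo (-0.02), Elane (-1.01), Prtn3 (-0.67) and Mcpt9 (-0.38) in EryCP against CR Sca1lo, Elane (-1.19), Prtn3 (-0.69), Ctsg (0.21) and Mcpt9 (-1) in EryCP against Sca1hi, Gfi1 (0.13) and Mcpt9 (0.38) in Ediff, and Runx1 (0.81), Serpinb9 (0.09) and Mcpt9 (1.06) in the difference between the Epo responses. With quantile normalization 1611 and 2308 genes were called in CR Sca1lo against Sca1hi and EryCP against CR Sca1lo, 1 and 2 of the 4 among them, and Prtn3 in Ediff (-0.14) and Elane in the difference (-0.16) turned. Spike-in scaling gave 283, 461 and 695 genes in the first set, 8049 in Ediff, 7290 in CD34- CD103- (3413 as reported) with 1 of the 4 called (3 as reported), and 14820 in CD34- CD103- Epo against CD34+ CD103- cells. It turned Prtn3 (-0.11, -0.05 and -0.16 in the first set), Elane (-0.11 in EryCP against Sca1hi, -0.04 in CD34- CD103- Epo against CD34- CD103-) and, against CD34+ CD103-, Ctsg (-0.28). It moved the median of all genes to -0.15 in CD34- CD103- Epo against CD34- CD103- and to -0.25 in EryCP against Sca1hi, and the share of calls that were higher from 45.4% to 7.91%, 26.1% to 1.47% and 46.6% to 1.03% in the third set, 33.7% to 15.2% and 48.5% to 32.4% for CR Sca1lo and EryCP against Sca1hi, and 70.2% to 56.2% in Ediff. In Ediff the median of 0.45 became 0.19, 0.16 and 0.1 with quantile normalization, median scaling and the deposited table, and the higher share 59%, 48.3% and 58.2% (24.3% with normexp). For the difference between the Epo responses that share was 62.3% and became 49.5% and 42.8% with quantile and median scaling, which both moved its median from 0.37 to 0.11. Median scaling gave 182, 423 and 577 genes in the first set, with higher shares of 17.6% and 67.1% for CR Sca1lo against Sca1hi and EryCP against CR Sca1lo (33.7% and 54.5%), 8331 in Ediff and 6784 in the difference, and turned Prtn3 in Ediff (-0.09) and Elane in the difference (-0.02). With slide as a block 4696, 5346 and 5508 genes were called in the first set, 2 of the 4 in each of CR Sca1lo against Sca1hi and EryCP against CR Sca1lo, and Prtn3 in Ediff (-0.05) and Elane in CD34- CD103- Epo against CD34- CD103- (-0.02) turned. A fit of all 26 arrays called 3089, 3574 and 3737 genes in the first set, 1 and 2 of the 4 in the same comparisons, 453 in CD34- CD103- Epo against CD34- CD103- and 0 of the 4 against CD34+ CD103-. A trended robust fit called 1095 in CD34- CD103- Epo against CD34- CD103-. The deposited table called 2217, 2987 and 2888 in the first set, with 1 and 2 of the 4 in the same comparisons, and turned Elane (-0.01 in EryCP against Sca1hi and in Ediff, -0.16 in the difference), Prtn3 in Ediff (-0.08), and Runx1 (1.22) and Mcpt9 (0.99) in the difference; the mean of all probes turned Runx1 in Ediff (-0.54). Leaving out each array gave 372 to 637, 727 to 1033 and 833 to 1337 genes in CR Sca1lo against Sca1hi, EryCP against CR Sca1lo and EryCP against Sca1hi, 338 to 765 and 677 to 1377 in CD34- CD103- Epo against CD34- CD103- and CD34+ CD103-, and 1 to 2 of the 4 in the last. In the same order for the first set Prtn3 ran from -0.08 to 0.16, -0.09 to 0.14 and -0.06 to 0.18 and Elane from -0.68 to 0.31, -0.21 to 0.79 and -0.33 to 0.5. Ctsg ran from -0.3 to 0.01 in EryCP against Sca1hi, Prtn3 from -0.01 to 0.57 in Ediff and Runx1 from -2.22 to 1.21 in the difference. The 2 Runx1 probes differed by -2.13 and 1.16 in that contrast, near both ends of its range, and the brightest probe stood for the gene. The cause of these changes was not tested. By replicate number no paired analysis was possible because the numbers in the sample titles run on through the arrays and no compared groups share them; pairing by slide was possible and is the slide block above.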

Other observations

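The log2 level of Mpo minus that of Ctsg on the same array does not change when an array is scaled by a constant, and it was examined after the data had been seen. It was higher in CR Sca1lo than in Sca1hi by 1.14 and lower in EryCP than in CR Sca1lo by -3.12 and than in Sca1hi by -1.98. With 3 arrays against 3 the exact 2-sided permutation test cannot go below p = 0.1, the value reached in these 3 comparisons. In Ediff it differed from EryCP repeat by 0.41 (exact p = 0.3), a difference not detectable with these arrays. In CD34- CD103- cells it was lower than in CD34+ CD103- cells by -1.83, after Epo it was higher than without by 1.04, and it was lower than in CD34+ CD103- cells by -0.79; each reached the smallest exact p these numbers of arrays allow (0.0286), or 0.0667 after Benjamini-Hochberg adjustment over the 7 comparisons. The signs were the same with normexp background correction, in the deposited value table and without each array in turn.

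Lists outside the granule showed the following, as counts called in Ediff against EryCP repeat. In that comparison 56.6% of all genes were called, 39.8% higher and 16.8% lower. Of 8 tested late granule genes of neutrophils 3 were higher and 3 lower, of 5 eosinophil markers 1 was higher and 2 lower, of 6 megakaryocyte markers 1 was higher and 4 lower, and of 4 tested lymphoid progenitor markers 2 were higher and 1 lower. All 5 tested stem cell and sorting markers were lower.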
